A study of Homo sapiens with 12 samples.

Results

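The genes described here encode the proteins of the cytosolic ribosome. They were chosen by symbol alone: RPL or RPS followed by a number with an optional A, X, L or digit, or RPSA, RPLP0, RPLP1 and RPLP2. The rule found 84 of the 23064 gene symbols in the count tables, 52 of the large (60S) subunit and 32 of the small (40S) subunit, and 7 of the 84 are paralogues such as RPL22L1 that can stand in for a canonical ribosomal protein. FAU and RACK1, which also encode cytosolic ribosomal proteins, do not carry such a symbol and are given separately.

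RNAseq was performed on CAL-29 and 5637, 2 established human bladder carcinoma cell lines whose genotype the labels give as WT. In each line, 3 libraries came from cells that received a control siRNA (siCtrl) and 3 from cells that received an siRNA against KMT9α (siKMT9α#1), all harvested on day 3, so 12 libraries in all. KMT9α, encoded by N6AMT1, is the catalytic subunit of a histone methyltransferase. The labels do not name the siRNA, which the deposited tables call si270, and the name siKMT9α#1 follows the study's results. Each line is 1 model, a single siRNA was sequenced, and dose and transfection reagent differed between the lines, so these cannot be told apart from the line. The labels do not say whether replicates were separate cultures, so p-values measure the spread between these libraries.

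A ribosome holds 1 copy of most of these proteins, and a cell must make them in matched amounts and in step with ribosomal RNA. Their mRNAs are very abundant and start with a 5′ terminal oligopyrimidine (TOP) tract, a C followed by further pyrimidines directly at the cap. Through this tract, mTORC1 signalling and the TOP-binding protein LARP1 control the translation and the stability of the whole group, while MYC is known to drive transcription of many of its genes. Bulk RNAseq with library scaling reads each mRNA relative to all others, so that a change in the total RNA per cell is not seen.

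The start of the mRNA was the sequence feature examined. RefSeq starts (GRCh38.p14, first listed start of each gene) were found for 67 members. A C followed by at least 4 bases that were each C or T began exactly at the listed start in 43 of the 67 (64.2%), against 4.62% of the 15704 genes of the tables with a listed start, and within 5 bases of it in 51 (76.1%), against 22.1%. Only the strand of the gene was searched. The 30-base windows below are centred on the start, with 15 bases before it, and are given for members that the results turn on. Capitals mark the tract from its C nearest to the start, and windows without capitals held none within 5 bases.
RPS6, chr9:19380222-19380251, minus strand: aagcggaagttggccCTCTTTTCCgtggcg
RPLP0, chr12:120201097-120201126, minus strand: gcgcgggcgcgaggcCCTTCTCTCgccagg
RPL4, chr15:66504841-66504870, minus strand: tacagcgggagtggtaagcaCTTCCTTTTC
RPL32, chr3:12841551-12841580, minus strand: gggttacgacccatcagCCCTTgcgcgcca
RPL31, chr2:101002274-101002303, plus strand: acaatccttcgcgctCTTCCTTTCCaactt
RPL3, chr22:39319609-39319638, minus strand: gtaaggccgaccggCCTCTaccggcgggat
RPL22, chr1:6199581-6199610, minus strand: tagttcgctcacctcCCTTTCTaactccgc
RPL22L1, chr3:170870181-170870210, minus strand: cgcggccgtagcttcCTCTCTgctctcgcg
RPS27, chr1:153990747-153990776, plus strand: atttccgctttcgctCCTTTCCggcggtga
RPS27L, chr15:63157463-63157492, minus strand: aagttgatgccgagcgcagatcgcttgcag
RPL26L1, chr5:172958714-172958743, plus strand: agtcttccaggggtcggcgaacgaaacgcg
RPL10, chrX:154398050-154398079, plus strand: tttttccactctcagaaatatacgtctgtc
The windows include members that rose (RPL4, RPS6), members that fell (RPL31, RPL3) and both genes of paralogue pairs. Of the paralogues shown, RPL22L1 held a tract at its start and RPS27L and RPL26L1 held none.

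Knockdown was checked first. N6AMT1 had 10.4 ± 0.891 TMM-scaled CPM (SD, n = 3) with siCtrl and 2.58 ± 0.515 CPM with siKMT9α#1 in CAL-29 cells (log2 fold change -1.997, adjusted p = 1.33e-10, edgeR). In 5637 cells, the values were 13.3 ± 0.0878 and 2.84 ± 0.803 CPM (log2 fold change -2.23, adjusted p = 1.05e-15, edgeR). Total counts per library lay between 24479348.5 and 35151256.5. Of 10 epithelial and urothelial markers, 10 reached 1 CPM in CAL-29 and 9 in 5637 cells, where UPK2 was below it. Their summed level was 13299 to 13975 CPM with siCtrl and 6396 to 6550 CPM with siKMT9α#1 in CAL-29 cells, and 8780 to 9206 against 6075 to 6289 CPM in 5637 cells, so it moved with the knockdown. The 3 fibroblast markers summed to at most 1.82 CPM, the 3 leukocyte markers to at most 3.30 CPM and the 3 endothelial markers to at most 4.65 CPM. In CAL-29 cells the leukocyte sum was 1.37 to 2.20 CPM with siCtrl and 3.14 to 3.30 CPM with siKMT9α#1, and the endothelial sum 1.64 to 1.79 and 4.12 to 4.65 CPM. In 5637 cells the endothelial sum went the other way, from 1.48 to 1.68 CPM with siCtrl to 0.443 to 0.824 CPM with siKMT9α#1, while the leukocyte sums overlapped (0.931 to 0.982 and 0.591 to 1.12 CPM). The part of these markers in the results was not tested. CAL-29 siCtrl replicate 1 stood apart from replicates 2 and 3 (chi-square per degree of freedom 8.17 and 12.3, against 3.32 between the other two). The share ratios of all members and of each subunit, and the medians over all members, are therefore also given without it. Medians of roles, of groups by start sequence or copied windows, and of other gene lists are given only with it.

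The members together took up a larger share of all counts after knockdown in both lines. In CAL-29 cells, the siCtrl libraries held 2.497, 2.89 and 2.997% of their counts in the 84 genes and the siKMT9α#1 libraries 4.004, 4.20 and 4.17%. Every siKMT9α#1 library lay above every siCtrl library, with means of 2.80 ± 0.264% and 4.13 ± 0.106% (SD, n = 3) and a ratio of 1.48, or 1.40 without siCtrl replicate 1, the lowest. In 5637 cells, the shares were 7.95, 8.24 and 8.24% with siCtrl and 8.84, 9.16 and 8.97% with siKMT9α#1. Here the groups were also separate, with means of 8.14 ± 0.165% and 8.99 ± 0.158% and a ratio of 1.10. Each comparison gave p = 0.1 in an exact permutation test (2-sided), the smallest that 3 libraries against 3 allow. Both subunits took part, with ratios of 1.45 (CAL-29) and 1.10 (5637) for the large subunit and 1.51 and 1.11 for the small subunit. Without CAL-29 siCtrl replicate 1, the CAL-29 ratios were 1.38 and 1.44.

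**Figure D1:**
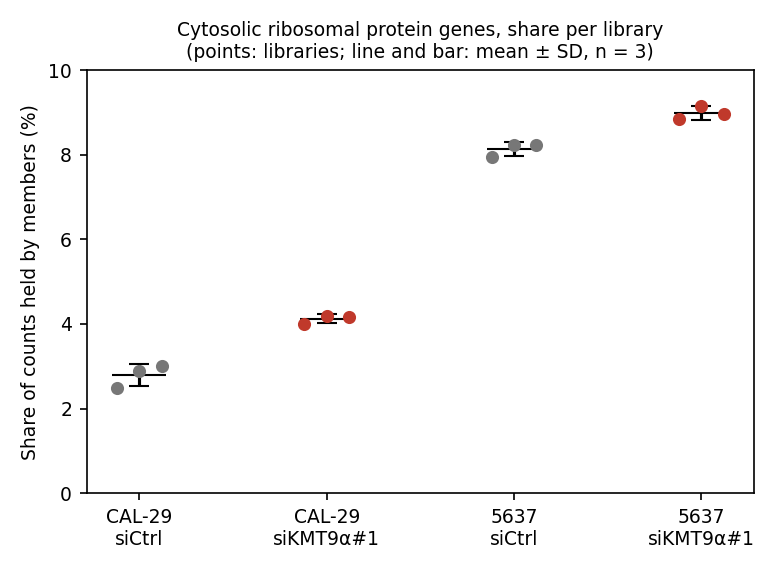
Share of all counts (%, y axis) held by the 84 genes in each of the 12 libraries (points) by line and siRNA, with the mean and SD of 3 libraries. The siKMT9α#1 points lie above the siCtrl points of the same line, and both 5637 groups, between 7.95 and 9.16%, lie above both CAL-29 groups, between 2.497 and 4.20%.

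Gene by gene, the ribosomal protein mRNAs rose together in CAL-29 cells. Of the 84 members, 81 passed the filter on low counts. The other 3 were the paralogues RPL10L and RPL39L, with no count in any library, and RPL3L, with at most 0.061 CPM. A count of 0 allows up to between 0.0853 and 0.123 CPM in these libraries (3 counts; counting error only). With the p threshold of the study's methods, 1e-06 without adjustment, 55 of the 81 rose (all genes tested: 15.0%) and 0 fell (all genes: 15.0%; edgeR, with 1 member at an unadjusted p below 0.05, and 0 also with DESeq2 and limma). At an adjusted p below 0.05, 76 rose (all genes: 34.3%) and 1 fell (all genes: 35.2%). The median log2 fold change was 0.47, or 1.39-fold, against -0.02 over all 14673 genes tested. The quartiles of the members were 0.38 and 0.58, a narrow band beside -0.45 and 0.33 for all genes, and 77 members had every siKMT9α#1 library above every siCtrl library (all genes: 35.6%; below: 36.7%).

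In 5637 cells, the rise was smaller and less uniform. At p below 1e-06, 34 members rose (all genes tested: 18.0%) and 4 fell (all genes: 17.6%), and at an adjusted p below 0.05, 64 rose (all genes: 35.1%) and 7 fell (all genes: 35.6%). The median log2 fold change was 0.17, or 1.12-fold, against -0.01 over 14335 genes. The siKMT9α#1 libraries lay wholly above siCtrl for 62 members (all genes: 35.8%) and wholly below for 7 (all genes: 36.6%). These small changes depended on the scaling. With limma after cyclic loess, which evens out abundant genes, the median was 0.06, the calls at p below 1e-06 were 19 up and 7 down, and those at adjusted p below 0.05 were 42 up and 14 down. Under that scaling, 7 of the 71 members called at adjusted p below 0.05 changed sign (RPL10A, RPL23, RPL24, RPS18, RPS27A, RPS3 and RPS4X), and none of the 38 called at 1e-06 did. In a joint model of all 12 libraries, 15 rose and 1 fell at 1e-06 in 5637 cells, while in CAL-29 cells 71 rose and 0 fell. The shares of all genes called after cyclic loess and in the joint model are not given.

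The number past 1e-06 in CAL-29 cells also moved with single libraries. It was 24 without siKMT9α#1 replicate 3, 30 without siKMT9α#1 replicate 2 and 31 without siCtrl replicate 2, and 75 without siCtrl replicate 1. The share of all genes called in these fits is not given, so whether it moved alike cannot be read from these counts. The number at an adjusted p below 0.05 stayed between 77 and 79 and the median log2 fold change between 0.39 and 0.54 (0.39 without siCtrl replicate 1).

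Both lines called 30 members up at p below 1e-06, against 8.45% of the 13674 genes tested in both, and 64 at an adjusted p below 0.05, against 22.6%. The 5 with the largest smaller fold change were RPL4, RPS20, RPL22L1, RPL26 and RPL26L1. RPL4, a large subunit protein that lines the exit tunnel through which the nascent chain leaves, had 483, 551 and 571 CPM with siCtrl and 1060, 1117 and 1147 CPM with siKMT9α#1 in CAL-29 cells. The corresponding 5637 libraries had 1286, 1320 and 1362 CPM against 2419, 2390 and 2390 CPM. The groups were far apart in both lines, with log2 fold changes of 1.05 (standard error 0.059, adjusted p = 1.75e-12) and 0.86 (0.029, adjusted p = 1.47e-20, edgeR). RPS20, of the head of the small subunit, had 205, 233 and 245 CPM against 445, 481 and 471 CPM in CAL-29 cells, and 447, 470 and 464 CPM against 816, 837 and 828 CPM in 5637 cells. Its level thus rose 2.04-fold and 1.79-fold (adjusted p = 1.92e-12 and 4.79e-20, edgeR). RPL4, RPS20 and RPL22L1 were the 3 largest risers in each line. They were the 3 members over 2-fold in CAL-29 cells, where 20 were over 1.5-fold, and the 3 over 1.5-fold in 5637 cells (all past 1e-06). These counts describe the members only, as the share of all genes past the same fold cut-offs is not given.

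The members were also read by role, where the counts are to be set against the 55 and 34 of 81 members that rose past 1e-06 in CAL-29 and 5637 cells (all genes 15.0% and 18.0%). No difference between roles was tested. RPLP0, RPLP1 and RPLP2 form the stalk that recruits elongation factors, and all 3 rose past 1e-06 in both lines. RPLP0, among the most abundant members, had 1166, 1346 and 1404 CPM with siCtrl and 1879, 1950 and 1963 CPM with siKMT9α#1 in CAL-29 cells, a 1.48-fold rise, and 2825, 2920 and 2953 against 3592, 3726 and 3714 CPM in 5637 cells, a 1.27-fold rise. The log2 fold changes were 0.46 (CAL-29) and 0.33 (5637) for RPLP1 and 0.62 and 0.33 for RPLP2. RPL5 and RPL11 join 5S rRNA in a particle that can also bind MDM2 when ribosome assembly is disturbed. In CAL-29 cells, both rose past 1e-06 (log2 fold changes 0.39 and 0.57), and in 5637 cells RPL5 did (0.20) and RPL11 passed the adjusted threshold only (0.16).

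RPS6, the 40S protein phosphorylated by S6 kinase downstream of mTORC1, rose more than most. It had 474, 554 and 582 CPM with siCtrl and 892, 938 and 939 CPM with siKMT9α#1 in CAL-29 cells, with no overlap (log2 fold change 0.78, standard error 0.062, adjusted p = 4.30e-10, edgeR). In 5637 cells, 1923, 1949 and 1996 CPM stood against 2406, 2476 and 2437 CPM (0.32, standard error 0.029, adjusted p = 5.82e-11, edgeR). RPSA, first described as a precursor of the laminin receptor, and RPL13A, which can leave the ribosome to act in the GAIT complex, rose past 1e-06 in both lines, by 1.35-fold and 1.39-fold in CAL-29 cells and 1.16-fold and 1.18-fold in 5637 cells. RPS27A, made as a fusion with ubiquitin, passed only the adjusted threshold in each line (log2 fold changes 0.32 and 0.10, the latter -0.01 after cyclic loess). RPS3, at the mRNA entry site of the 40S subunit, rose in CAL-29 cells past 1e-06 (0.42). In 5637 cells, its libraries overlapped and the value was 0.10, which was -0.02 after cyclic loess.

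Among members at or near the decoding centre and the mRNA entry site (RPS2, RPS3, RPS15, RPS23), 4 of 4 rose past 1e-06 in CAL-29 cells and 3 of 4 in 5637 cells. Of the members listed for the exit tunnel, RPL4, RPL17, RPL23A and RPL35, 3 of 4 and 2 of 4 did, and RPL17 had -0.06 in 5637 cells. These counts stand beside 15.0% and 18.0% of all genes. RPL31, at the exit site of the tunnel, was not on that list and had negative log2 fold changes (-0.18 in CAL-29 and -0.28 in 5637 cells). Of 9 members mutated in Diamond-Blackfan anaemia, an inherited failure of red cell production, 6 rose past 1e-06 in CAL-29 cells (median log2 fold change 0.46) and 3 in 5637 cells (0.16), and none fell in either test (8 of the 9 were called up at the adjusted threshold in each line).

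Few members went the other way. RPL31, a large subunit protein at the exit site of the tunnel, was the single member to fall at an adjusted p below 0.05 in CAL-29 cells. It had 290, 323 and 335 CPM with siCtrl and 268, 291 and 275 CPM with siKMT9α#1, so the groups overlapped (log2 fold change -0.18, standard error 0.054, adjusted p = 0.00504, edgeR), and under scaling by total counts it was not called. In 5637 cells, it had 796, 858 and 830 CPM against 669, 687 and 688 CPM, without overlap (-0.28, standard error 0.031, adjusted p = 4.80e-09, edgeR). RPL3, which helps shape the peptidyl transferase centre, changed in opposite directions. In CAL-29 cells, it had 655, 769 and 787 CPM against 864, 929 and 938 CPM, a rise at the adjusted threshold (0.30, adjusted p = 0.000169, edgeR), and in 5637 cells 2108, 2207 and 2214 CPM against 1793, 1836 and 1805 CPM, a fall past 1e-06 (-0.27, adjusted p = 3.76e-09, edgeR). RPL15, also of the large subunit and named here after its values were seen, was the other canonical member to fall past 1e-06 in 5637 cells (-0.22, adjusted p = 1.20e-07, edgeR), with 0.08 in CAL-29 cells, where it was not called.

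**Figure D2:**
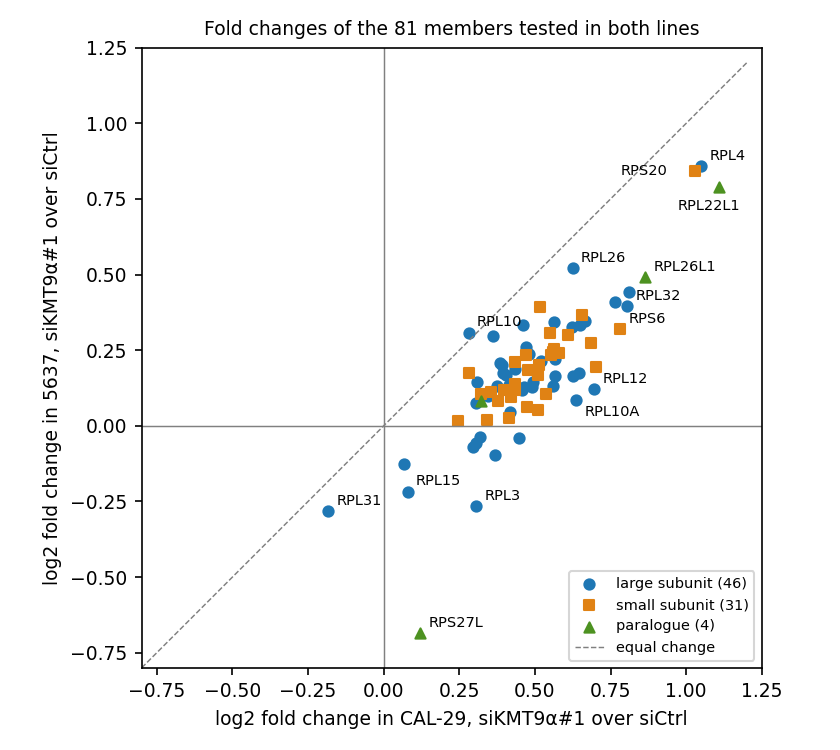
Log2 fold change after knockdown (siKMT9α#1 over siCtrl) of each of the 81 members tested, in CAL-29 (x axis) and 5637 (y axis). All points but RPL10 lie below the dashed line of equal change, RPL4, RPS20 and RPL22L1 stand apart at the upper right, and RPS27L lies lowest at -0.68 in 5637.

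The order of the members was similar in the 2 lines. Across the 81 members, the log2 fold changes of CAL-29 and 5637 had a Pearson r of 0.82 and a Spearman rho of 0.72, as a description over genes, which are not independent replicates. The lines share no library. The response was larger in CAL-29 cells for 80 of the 81. With an interaction term over all 12 libraries, it was larger in CAL-29 for 73 members at an adjusted p below 0.05 (all 15395 genes: 28.5%) and smaller for 0 (all genes: 21.9%; edgeR, with 0 at an unadjusted p below 0.05, and 0 also with DESeq2 and limma). In a test for a difference of more than 1.5-fold (edgeR glmTreat, adjusted p below 0.05), 0 members passed in either direction, against 1653 of the 15395 genes. The median difference was 0.33 against 0.04 for all genes. Scaling by total counts moved the median of all genes in this comparison by over 0.1, to 0.16, and that of the members to 0.44, so that the members' median stood 0.28 above that of all genes with either scaling. Without CAL-29 siCtrl replicate 1, the members' median difference was 0.25.

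The largest differences in response belonged to RPS27L, RPL12, RPL3, RPL10A and RPS2. RPL12, next to the stalk base, had 287, 318 and 341 CPM with siCtrl and 485, 528 and 521 CPM with siKMT9α#1 in CAL-29 cells, while in 5637 cells it had 862, 919 and 909 CPM and 952, 997 and 975 CPM. The groups were separate in both lines, but the rise was 1.62-fold in the first and 1.09-fold in the second (difference in log2 fold change 0.59, standard error 0.071, adjusted p = 5.02e-08, edgeR interaction). RPL10A, of the L1 stalk through which the deacylated tRNA exits, rose 1.55-fold in CAL-29 and 1.06-fold in 5637 cells, the latter -0.02 on the log2 scale after cyclic loess (difference 0.57, adjusted p = 7.41e-08, edgeR interaction). RPL10, a late-joining protein of the large subunit, was the exception to the common pattern, with 0.28 in CAL-29 and 0.31 in 5637 cells (difference -0.01, standard error 0.066, adjusted p = 0.910, edgeR interaction).

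Paralogues can take the place of a ribosomal protein and are often restricted to certain tissues. RPL22L1, the paralogue of RPL22, lies on chromosome 3 (170582664 to 170587997, minus strand, hg19) and rose the most of all members in CAL-29 cells, from 14.2, 15.2 and 13.9 CPM with siCtrl to 29.99, 32.0 and 31.6 CPM with siKMT9α#1. In 5637 cells, it went from 13.5, 13.7 and 13.1 CPM to 22.5, 23.2 and 23.9 CPM. These were 2.16-fold and 1.73-fold rises (log2 fold changes 1.11 and 0.79, adjusted p = 2.70e-11 and 1.27e-11, edgeR). RPL22 itself, at 167 ± 14.9 CPM in CAL-29 and 452 ± 25.5 CPM in 5637 siCtrl cells (SD, n = 3), rose 1.47-fold in CAL-29 cells and 1.10-fold in 5637 cells, the latter past the adjusted threshold only. RPL26L1 rose past 1e-06 in both lines, at 12.9 ± 0.929 and 23.4 ± 1.16 CPM in CAL-29 cells and 21.0 ± 0.775 and 29.6 ± 1.83 CPM in 5637 cells (SD, n = 3), with log2 fold changes of 0.86 and 0.49 beside 0.63 and 0.52 for RPL26, which rose past 1e-06 in both lines too. The differences within pairs were not tested. Of the 100-base windows of RPL26L1 and RPL26, 22.9% and 27.5% have an exact copy elsewhere, so reads of this pair are less certain. The same limit holds for RPL7L1 (21.9%), RPL22 (28.2%), RPL7 (59.9%), RPL39 (92.8%) and RPS27 (94.1%). It also holds for members named outside these pairs, among them RPL3 (31.6%), RPL12 (32.7%), RPLP0 (39.6%), RPL15 (44.9%), RPL17 (64.1%) and RPL41 (87.6%). RPL22L1 (0.0%), RPS27L (0.466%), RPS6 (0.0%) and RPL32 (0.0%) had few or no such copies.

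RPS27L is a paralogue of RPS27 and a known p53 target. It lies on chromosome 15 (63418071 to 63450220, minus strand, hg19). In 5637 cells, its libraries had 13.98, 15.7 and 16.8 CPM with siCtrl and 8.99, 10.04 and 9.88 CPM with siKMT9α#1, a fall to 0.622 of the control level without overlap (log2 fold change -0.68, standard error 0.084, adjusted p = 3.18e-08, edgeR). In CAL-29 cells, 14.7, 18.7 and 14.1 CPM overlapped with 17.2, 17.2 and 17.3 CPM (0.12, standard error 0.096, adjusted p = 0.276, edgeR). The difference between the lines, 0.82 with a standard error of 0.133, was the largest of all members (adjusted p = 7.80e-06, edgeR interaction). RPS27 had log2 fold changes of 0.25 in CAL-29 (adjusted p = 0.00119, edgeR) and 0.02 in 5637 cells (adjusted p = 0.720, and -0.09 after cyclic loess). RPL7L1, a nucleolar relative of RPL7, rose at the adjusted threshold in CAL-29 (0.32) and had 0.08 in 5637 cells, while RPL7 rose past 1e-06 in CAL-29 (0.45) and had -0.04 in 5637 cells. RPL39, whose paralogue RPL39L had no count, rose past 1e-06 in CAL-29 (0.49) and at the adjusted threshold in 5637 cells (0.13).

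**Figure D3:**
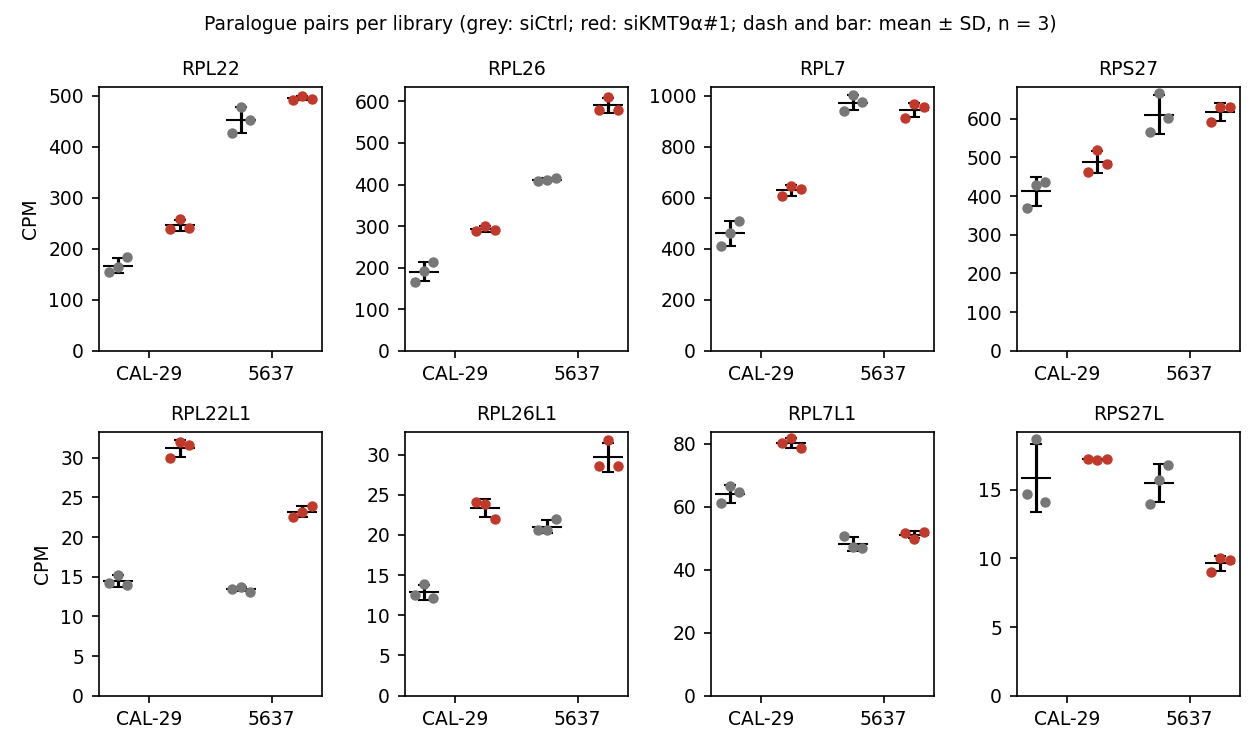
CPM in each library (points, with mean and SD of 3) for 4 canonical genes (top row) and their paralogues (bottom row), by line and siRNA, each panel from 0. RPL22L1 and RPL26L1 are higher with siKMT9α#1 (red) than with siCtrl (grey) in both lines, while RPS27L falls from 15.5 to 9.64 CPM on average in 5637 and overlaps in CAL-29.

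In CAL-29 cells, the 51 members with a pyrimidine tract within 5 bases of the start changed by a median of 0.51 on the log2 scale (39 up past 1e-06), and the 15 tested members with a listed start and no tract by 0.32 (5 up). The difference was not tested, and 15.0% of all genes were up. In 5637 cells, where 18.0% of all genes were up, the medians were 0.18 (24 up and 2 down) and 0.15 (4 up and 2 down). Only the first listed start of each gene was read, and a tract at another start would be missed. RPL10, RPL13, RPL15 and RPS27A, without a tract, have 3 listed starts, as does RPL32, with one. The groups can therefore not be read as TOP and non-TOP mRNAs. RPL31 and RPL3 both carry a tract, so the members that fell include TOP genes, and RPL26L1 rose with none at its first listed start. Reads of near-identical copies, such as the many pseudogenes of this family, make counts less certain. In CAL-29 cells, the 28 tested members with under 1% of their 100-base windows copied elsewhere had a median of 0.53, and the other 53 had 0.43, while in 5637 cells these were 0.23 and 0.15.

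The levels before knockdown differed between the lines far more than the knockdown moved them. In siCtrl cells, members held 2.80 ± 0.264% of counts in CAL-29 and 8.14 ± 0.165% in 5637 (SD, n = 3), a ratio of 2.91 (exact permutation test, 2-sided p = 0.1, the smallest possible), or 2.77 without CAL-29 siCtrl replicate 1. Of the 81 members, 78 were lower in CAL-29 at an adjusted p below 0.05 (all 15070 genes: 42.6%) and 1, RPL7L1, was higher (all genes: 42.6%). The median log2 difference, CAL-29 minus 5637, was -1.42 against 0.01 for all genes, and -1.38 without that replicate. In 5637 cells, 65 members were at least 2-fold and 14 at least 4-fold higher, as were 18.8% and 7.43% of all genes. Every one of the 77 canonical members was lower in CAL-29, whereas the tested paralogues were not shifted as a group, with 1 lower (RPL26L1), 1 higher (RPL7L1) and RPL22L1 and RPS27L at log2 differences of 0.04 and -0.03. Line and culture conditions cannot be told apart here.

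RPL32 differed the most. This large subunit gene (chromosome 3, 12875984 to 12883081, minus strand, hg19) had 161 ± 18.7 CPM in CAL-29 and 3653 ± 117 CPM in 5637 siCtrl cells (SD, n = 3, the 6 libraries scaled together). It was 22.7-fold higher in 5637 (log2 difference -4.50, standard error 0.08, adjusted p = 1.59e-19, edgeR), and it took 4.48 to 4.51% of all member counts there against 0.563 to 0.596% in CAL-29. RPS28, named after its values were seen, followed at 8.55-fold, with 65.5 ± 7.65 CPM against 561 ± 11.7 CPM. Without both genes the ratio of the shares was 2.78. After knockdown, RPL32 rose past 1e-06 in each line, 1.75-fold in CAL-29 and 1.32-fold in 5637. Scaled within the line, it had 145, 168 and 183 CPM with siCtrl and 286, 294 and 286 CPM with siKMT9α#1 in CAL-29 cells, and 3469, 3665 and 3642 CPM against 4663, 4790 and 4723 CPM in 5637 cells, with no overlap in either.

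**Figure D4:**
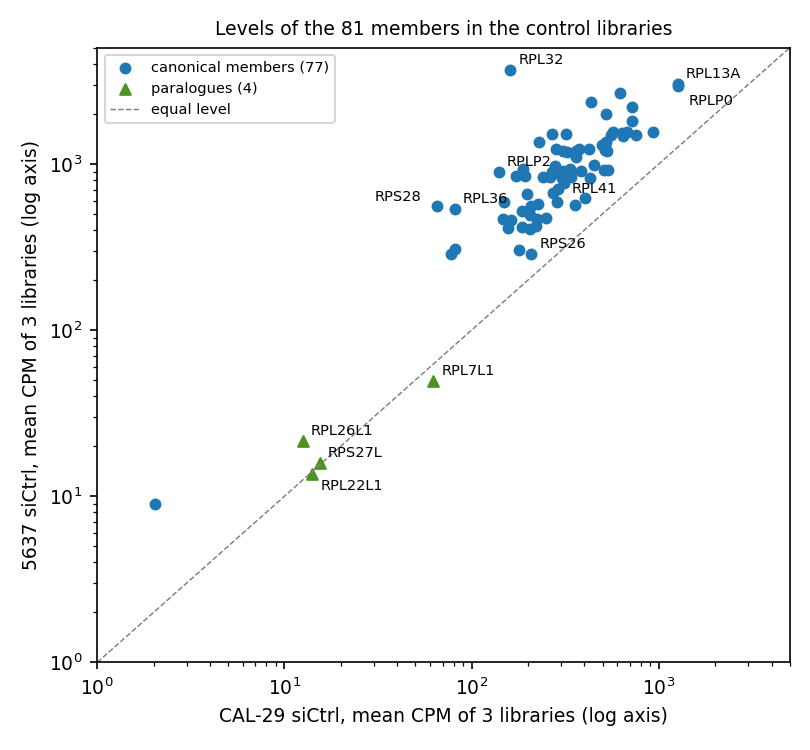
Mean CPM of 3 siCtrl libraries for each of the 81 tested members in CAL-29 (x axis) and 5637 (y axis), both on log axes. Canonical members (circles) lie above the dashed line of equal level, RPL32 farthest, while the 4 tested paralogues (triangles) lie near it, RPL7L1 below it.

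Between genes, levels were compared as CPM per kilobase of coding length in siCtrl cells, averaged over the lines. RPL41, RPL32 and RPL13A were the most abundant at 7446, 4639 and 3496 CPM per kilobase, where RPL41 has a coding length of 75 bases, so that untranslated sequence weighs heavily in its value. RPL32 held its rank through 5637 alone, with 8869 CPM per kilobase there and 408 in CAL-29. The paralogues RPL22L1 and RPL26L1 were among the 3 least abundant of the members tested, at 38.1 and 39.0 CPM per kilobase. All but 2 of the tested members had a mean of at least 500 counts in CAL-29 libraries.

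Other genes of the translation machinery were read from lists. Of the 4 other cytosolic ribosomal protein genes, RACK1, a scaffold on the 40S head, and FAU, a ubiquitin-like fusion of RPS30, rose past 1e-06 in CAL-29 cells (log2 fold changes 0.41 and 0.39). In 5637 cells, both passed only the adjusted threshold (0.16 and 0.16). RPL36AL, a near copy of RPL36A, rose past 1e-06 in 5637 cells (0.55) and had 0.04 in CAL-29 cells, where RPL36A had 0.37 and, in 5637 cells, -0.10. Of 17 other mRNAs with a known TOP tract, 5 rose and 1 fell past 1e-06 in CAL-29 cells (median 0.27), where 15.0% of all genes rose and 15.0% fell, and 10 rose with DESeq2. In 5637 cells, 7 rose and 2 fell (median 0.12), where 18.0% of all genes rose and 17.6% fell. That balance turned with the scaling, to 5 up and 4 down (median 0.065) with total counts and to 3 up and 4 down (median 0.016) after cyclic loess. PABPC1, the poly(A)-binding protein, rose from 963 ± 74.3 to 1664 ± 32.1 CPM in CAL-29 and from 842 ± 16.6 to 1716 ± 30.6 CPM in 5637 cells (log2 fold changes 0.79 and 1.03). NPM1, a nucleolar chaperone, rose in both lines (0.60 and 0.20), while NACA, which binds nascent chains at the exit tunnel, fell in both (-0.58 and -0.91).

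The ribosome biogenesis list had larger medians than the members, a difference that was not tested. Of 28 genes, 25 rose past 1e-06 in CAL-29 cells (all genes 15.0%) and 18 in 5637 cells (all genes 18.0%), with medians of 0.73 and 0.41. None fell past 1e-06 in either line, where 15.0% and 17.6% of all genes did. UBTF in both lines and RIOK2 in 5637 cells were below 0 at an unadjusted p below 0.05 (edgeR), and 0 fell past 1e-06 also with DESeq2 and limma. This list, like the others, was chosen with earlier results of these data known. POLR1B, a core subunit of RNA polymerase I, rose 2.27-fold and 1.82-fold, and LYAR, a nucleolar factor of rRNA processing, went from 6.94 ± 1.05 to 24.1 ± 0.698 CPM in CAL-29 cells (log2 fold change 1.80, adjusted p = 1.35e-12, edgeR) with 0.73 in 5637 cells. RRN3, the initiation factor of that polymerase, rose in both (0.59 and 0.77). Of 10 genes that control TOP mRNAs or ribosomal protein genes, 4 rose past 1e-06 in CAL-29 cells (all genes 15.0%), or 7 with total counts or DESeq2. In 5637 cells, 6 rose and 1 fell (all genes 18.0% and 17.6%), or 4 and 1 with total counts or cyclic loess. RPTOR, the substrate-binding subunit of mTORC1, went from 38.2 ± 3.53 to 72.8 ± 0.599 CPM and from 43.5 ± 2.45 to 87.8 ± 0.472 CPM (0.93 and 1.01), and MYC rose in both lines (0.70 and 0.56). RPS6KB1, the S6 kinase gene, rose past 1e-06 in 5637 (0.70) and at the adjusted threshold in CAL-29 cells (0.38). In each line 2 of the 10 were below 0, MTOR and EIF4EBP2, named after their values were seen. MTOR had -0.02 in CAL-29, where it was not called, and -0.14 in 5637 cells, at the adjusted threshold. EIF4EBP2 fell at the adjusted threshold in CAL-29 (-0.26) and past 1e-06 in 5637 cells (-0.28).

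Mitochondrial ribosomal proteins, which build a separate ribosome and carry symbols beginning MRPL or MRPS, were set beside the members. Of 78 tested in each line, 19 rose and 1 fell past 1e-06 in CAL-29 cells (median 0.26; all genes 15.0% up and 15.0% down), and the number that rose was 10 after cyclic loess and 27 with DESeq2. In 5637 cells, 8 rose and 6 fell (all genes 18.0% up and 17.6% down), with 5 up with total counts or cyclic loess and 14 up with DESeq2. The median there was 0.02, which was -0.03 with scaling by total counts and -0.02 with upper quartile scaling. Their median difference in response between the lines was 0.30, beside 0.33 for the cytosolic members, so a larger response in CAL-29 was also seen outside the cytosolic members. Both values include CAL-29 siCtrl replicate 1, without which that of the cytosolic members was 0.25. In siCtrl cells, their median log2 difference between CAL-29 and 5637 was -0.62, beside -1.42.

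**Figure D5:**
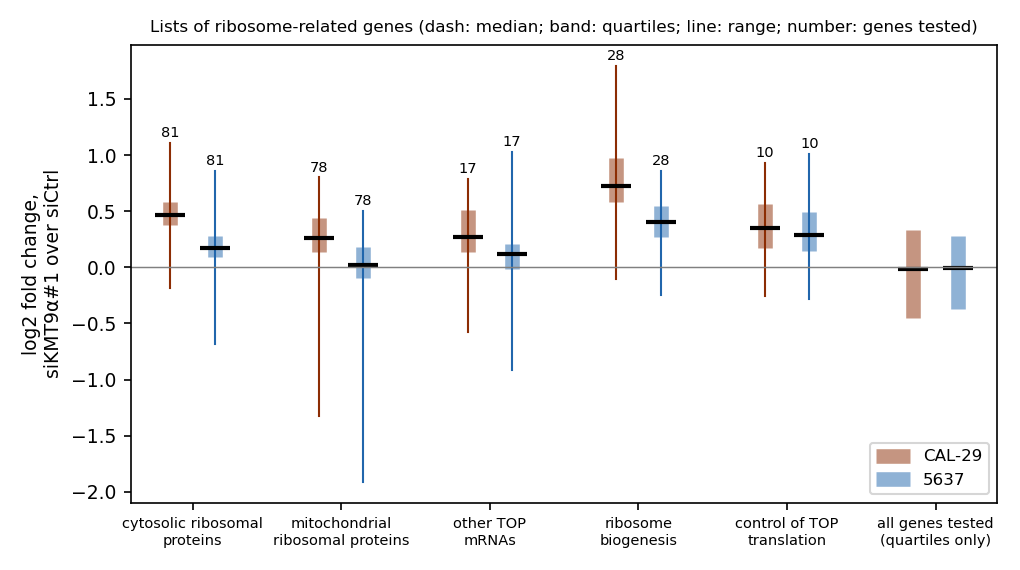
Log2 fold change after knockdown (y axis) of 5 gene lists and all genes tested, in CAL-29 and 5637, with the median (dash), quartiles (band) and, for the lists, the range (line) and the number of genes tested. The cytosolic ribosomal proteins have medians of 0.47 and 0.17, between ribosome biogenesis at 0.73 and 0.41 and mitochondrial ribosomal proteins at 0.26 and 0.02.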

How the data were processed

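RNA of 12 libraries was sequenced by the study. According to the submitters' processing notes and the study's methods, reads were aligned to hg19 with STAR and counted per RefSeq transcript with HOMER, and edgeR was used for testing. The deposited tables hold estimated counts without normalization, in steps of 0.5 (36.6% and 37.9% of values were not whole), for 37400 rows. Their 3 columns of the authors' own fold changes and p-values were not used. Strand use in counting is not given in the sources used here, so reads of overlapping antisense genes cannot be told apart.

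For each symbol, the row with the most counts was kept (26 members had several rows, and the kept row differed between lines for 2) and rounded. In edgeR 4.0.16 (R 4.3.3), libraries were scaled with TMM, low genes were removed with filterByExpr, and the quasi-likelihood test was fitted to all genes of each line with the siRNA as the only term. Standard errors are the log2 fold change over the root of F. Calls used an unadjusted p below 1e-06, as in the study's methods, and a Benjamini-Hochberg adjusted p below 0.05 over all genes. Lines were compared with an interaction term, and siCtrl libraries with the line as the only term. Replicates varied by 5.09% in CAL-29 and 3.34% in 5637 cells (biological coefficient of variation), and replicate libraries differed beyond sampling noise in each pair (lowest chi-square per degree of freedom 2.25). The test was checked on simulated counts.

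The members and lists were chosen with earlier results of these data known. Genes named were N6AMT1, paralogue pairs, members of listed roles, the largest common and single-line changes, differences between lines and levels, and the 2 largest changes of each other list and line. Alternatives were other scalings, filters, DESeq2 1.42.0, limma 3.58.1, the mean over rows, a replicate block, a joint model and leaving out libraries. Positions are from GENCODE on GRCh37, which matched all 84 members. Start sequences are from RefSeq (GRCh38.p14), and the tract rule and the search for exact 100-base copies were chosen after the data were seen. Some items covered by these rules are not reported here. Ratios between lines and by subunit without 1 library were added after seeing the data.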

Additional observations from a re-analysis of the deposited data

Results flagged for a closer look

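The response to siKMT9α#1 differed between CAL-29 and 5637 cells for 73 of the 81 members at an adjusted p below 0.05, by the interaction term of edgeR's quasi-likelihood test over all 12 libraries, and was larger in CAL-29 for each of the 73. None of these differences was called larger than 1.5-fold (edgeR glmTreat, adjusted p below 0.05), against 1653 of 15395 genes. The lines also differ in dose and transfection reagent, and the part of these was not tested.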

How the results depend on the processing

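Members called at 1e-06 kept their direction under 5 other scalings in both lines (total counts, upper quartile, TMM without the members, DESeq2, cyclic loess). In 5637 cells, the median log2 fold change was 0.12 with total counts, 0.13 with upper quartile scaling and 0.062 after cyclic loess. Cyclic loess gave 19 up and 7 down at 1e-06, and 42 up and 14 down at adjusted p below 0.05. The joint model called 16 at 1e-06 in 5637 cells (15 up, 1 down) and 71 in CAL-29 cells (71 up, 0 down). The shares of all genes called after cyclic loess and in the joint model are not given. In CAL-29 cells, scaling by total counts called 0 down at adjusted p below 0.05 (edgeR), where TMM called 1. The cause of these shifts was not tested. Leaving out single libraries gave 24 to 75 calls at 1e-06 in CAL-29 (24 to 74 up, 0 to 1 down) and 27 to 42 in 5637 cells (23 to 38 up, 3 to 4 down), and medians of 0.39 to 0.54 and 0.15 to 0.19. It gave 68 to 78 members that differed in response and 79 that differed between siCtrl cells. For these fits, the shares of all genes called are not given. Correlations of same-numbered deviations were 0.15, 0.01 and 0.06 in CAL-29 and 0.14, -0.01 and -0.0026 in 5637 cells, and not every library correlated best with its own number. Titles and descriptions number the knockdown replicates differently, and the titles' numbers were used. Whether the libraries were paired can therefore not be told. With the number as a replicate block, 76 members were called at 1e-06 in CAL-29 and 46 in 5637 cells, 78 and 72 at adjusted p below 0.05, and 75 in the interaction. Of 1408 values of single genes under alternatives, 87 lost and 56 gained the call at 1e-06. Signs changed in 8, of which 4 were of values past neither threshold. The other 4 were called at adjusted p below 0.05 in 5637 cells by edgeR (RPL10A, RPS27A, RPS3) or limma (RPS27) and were -0.021, -0.0063, -0.019 and -0.089 after cyclic loess. Depth limits RPL10L, RPL39L and RPL3L.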
